A study of Homo sapiens with 10 samples.

Results

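The insulator protein CTCF and parts of the cohesin machinery are encoded by the 10 human genes described here. Their transcripts were followed in 697 cells with and without a phorbol ester. The members were taken by gene symbol from the deposited expression table, and all 10 listed symbols were found among its 27142 genes. They are CTCF, the cohesin ring genes SMC1A, SMC3 and RAD21, the STAG1 and STAG2 subunit genes, the loader gene NIPBL, the regulators PDS5A and PDS5B, and CDCA5, which encodes sororin. Cohesin is a ring-shaped protein complex that entraps DNA. It holds sister chromatids together after replication, and in interphase it extrudes chromatin loops that stop where CTCF is bound in the right orientation. In B-cell precursors such loops shape the immunoglobulin loci that undergo V(D)J recombination.

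The 697 line is an established human pre-B acute lymphoblastic leukaemia line. TPA (12-O-tetradecanoylphorbol-13-acetate) is a phorbol ester that activates protein kinase C. The RNA groups were parental 697 cells treated with TPA at 0.5 µg/ml, in 2 libraries, and untreated parental 697 cells, in 2 control libraries. Both were grown in RPMI1640 medium with fetal bovine serum, and the labels give the treatment time only as a range of 0 to 24 h. The other 6 of the 10 samples were CTCF and H1 chromatin immunoprecipitation libraries and input DNA, which were not analysed here, so CTCF is seen only as a transcript. All RNA came from 1 cell line, and the labels do not describe the replicates as separate cultures. The p-values therefore measure only the spread between these libraries, which may be technical.

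Expression was given in RPKM, a read count divided by gene length and by the library's reads, so levels can be compared between genes. Summed RPKM was 349438 and 388846 in the TPA libraries and 370558 and 386700 in the control libraries. Read totals are unknown. From the step size of low values the other 3 libraries came out at 92.3% to 97.9% of the depth of control replicate 1. Only value ratios close to 1 were kept for this estimate, so a large difference in depth could not have been seen. CD79A, 1 of the 12 pre-B markers, was at 199 RPKM or more in every library. The 6 T-cell and 6 erythroid markers stayed at or below 0.109 RPKM. Of the 12 pre-B markers 4 rose and 8 fell, where 28.4% of all tested genes rose and 29.8% fell. CD22, CD79A and CD79B were among those that rose. IGLL1 fell from a control mean of 457 RPKM to 8.97 RPKM with TPA, and DNTT from 789 to 26.0 RPKM. The list as a whole thus did not bear out the pre-B type in the TPA libraries. Of 6 myeloid markers, CSF1R and CD68 were higher with TPA, and entered the test only through the TPA libraries, since both were under 1 RPKM in both control libraries. The other 4 (CD14, LYZ, MPO and ITGAM) stayed below the filter. The summed level of the 6 was 13.0 and 16.2 RPKM with TPA, against 1.22 and 1.68 RPKM in control, and the part of these marker changes in the results below was not tested. A filter of 1 RPKM or more in 2 or more libraries left 12159 genes, which were tested with limma on log2(RPKM + 1), and a change was called at a Benjamini-Hochberg adjusted p under 0.05. In these bulk libraries fewer cells with a transcript and less of it per cell cannot be told apart.

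Nearly the whole set was lower in TPA-treated cells. All 10 members passed the filter, and 9 of them fell, where 29.8% of all tested genes fell. None rose, where 28.4% of all tested genes did, and NIPBL did not pass. The median log2 fold change of the 10 was -0.86, against -0.02 over all tested genes. The falls differed in size. CDCA5 fell to 3.93% of its control mean and SMC1A to 26.0%, while the other 7 that fell lay between 49.9% and 75.7% of control. For all 9 the TPA libraries lay below both control libraries, as they did for 41.0% of all tested genes.

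**Figure D1:**
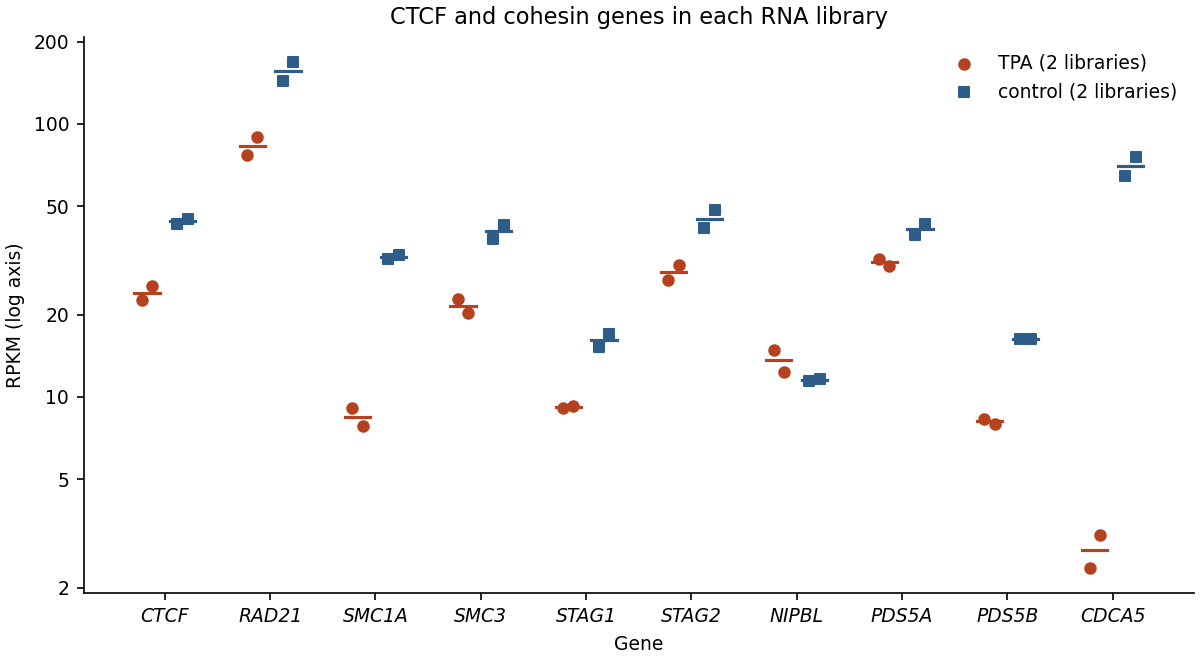
RPKM of each of the 10 genes (log axis) in the TPA libraries (circles, left) and control libraries (squares, right), with a bar at each group's mean of 2 libraries. For 9 genes both TPA points lie below both control points, with the widest gap at CDCA5, and for NIPBL both TPA points lie above.

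The sequence before the start site was read for the members in RefSeq on GRCh38.p14, of which 9 had an entry, in 12 windows of 250 bases. RAD21 had no entry and was not searched. The windows are shown for 4 members: CDCA5, with the deepest fall, CTCF, the protein precipitated in the study, STAG1, an alternative subunit gene, and NIPBL, which did not fall. Capitals mark matches, on either strand, to the binding word of the E2F cell cycle factors or to a cell cycle homology region, an element of genes that peak late in the cycle. The E2F words searched were TTTCCCGC, TTTGGCGC, TTTCGCGC and TTTGCCGC. The homology region was searched as TTTGAA and also in its variant form, which reads TTCGAA.
CDCA5, chr11:65084041-65084290, minus strand: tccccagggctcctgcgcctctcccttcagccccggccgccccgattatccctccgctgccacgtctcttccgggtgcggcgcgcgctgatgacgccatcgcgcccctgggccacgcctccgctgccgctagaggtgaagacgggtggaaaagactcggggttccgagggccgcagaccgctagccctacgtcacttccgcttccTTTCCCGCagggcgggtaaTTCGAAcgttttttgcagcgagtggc
CTCF, chr16:67562276-67562525, plus strand: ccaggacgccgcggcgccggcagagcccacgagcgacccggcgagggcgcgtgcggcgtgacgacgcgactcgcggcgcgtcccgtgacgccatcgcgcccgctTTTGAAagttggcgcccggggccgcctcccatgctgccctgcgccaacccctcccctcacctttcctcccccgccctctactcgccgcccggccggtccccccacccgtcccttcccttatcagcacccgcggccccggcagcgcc
STAG1, chr3:136752379-136752628, minus strand: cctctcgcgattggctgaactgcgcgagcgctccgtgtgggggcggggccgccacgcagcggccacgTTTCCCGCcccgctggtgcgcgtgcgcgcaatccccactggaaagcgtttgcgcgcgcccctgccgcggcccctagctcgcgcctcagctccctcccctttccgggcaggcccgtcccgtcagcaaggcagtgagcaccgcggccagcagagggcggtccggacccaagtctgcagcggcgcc
NIPBL, chr5:36876519-36876768, plus strand: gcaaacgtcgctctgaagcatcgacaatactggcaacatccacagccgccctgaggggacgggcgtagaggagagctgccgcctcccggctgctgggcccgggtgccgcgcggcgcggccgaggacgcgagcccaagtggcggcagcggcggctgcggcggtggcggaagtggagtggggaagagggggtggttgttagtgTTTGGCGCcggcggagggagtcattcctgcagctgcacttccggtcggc

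In the CDCA5 window an E2F word lies 45 to 38 bases before the start, and a homology region word lies 26 to 21 bases before it. Among the members searched, which leave out RAD21, only CDCA5 had both words in 1 window. E2F words were found in 5 of the 12 member windows, against 2.79% of 35116 RefSeq windows of the same length, and windows from start sites of 1 gene can overlap. They belong to CDCA5, STAG1, NIPBL, the second SMC1A start site and the third STAG2 start site. The E2F word of NIPBL, the member that did not fall, lies 49 to 42 bases before its start, and that of STAG1 183 to 176 bases before. Homology region words were in 3 member windows (CTCF, SMC3 and CDCA5), against 14.3% of all windows. The words were picked after the values and sequences were seen, so the comparison with all windows is no test. The windows were not matched for base composition. A match says only that these letters are present.

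CTCF (16q22.1) encodes the zinc finger protein that binds insulator sites and halts cohesin at loop anchors. Its transcript was at 22.7 and 25.4 RPKM in the TPA libraries and at 43.0 and 45.0 RPKM in the control libraries. The groups did not overlap, and the TPA libraries were the lower ones. The mean was 24.0 ± 1.96 RPKM with TPA and 44.0 ± 1.36 RPKM in control (SD, n = 2 libraries each, as for every such value below), which is 54.6% of control. The log2 fold change was -0.85 (SE 0.134, limma, adjusted p = 0.00098), and 14.7% of tested genes changed by as much or more in this direction.

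The ring subunits fell unequally. RAD21 (8q24.11) encodes the kleisin that closes the ring and is cut by separase at anaphase. It was at 76.7 and 89.3 RPKM with TPA and at 143 and 168 RPKM in control, with a log2 fold change of -0.90 (SE 0.152, limma, adjusted p = 0.00136). SMC3 (10q25.2), an ATPase arm of the ring and the target of the acetylation that locks cohesion, was at 22.9 and 20.2 RPKM with TPA and at 38.0 and 42.8 RPKM in control. Its log2 fold change was -0.88 (SE 0.141, limma, adjusted p = 0.00106). RAD21 and SMC3 thus stood at 53.3% and 53.4% of their control means.

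SMC1A (Xp11.22), the other ATPase arm, was at 9.10 and 7.85 RPKM with TPA and at 32.1 and 33.1 RPKM in control. The groups lay far apart, with the TPA libraries low. The log2 fold change was -1.83 (SE 0.136, limma, adjusted p = 1.54e-05), which ranked 470 from the largest fall among the 12159 genes. The microRNA gene MIR6857 lies within SMC1A and was at 2.36 and 0.507 RPKM with TPA and at 3.47 and 5.23 RPKM in control. MIR6857 was also called as fallen (log2 fold change -1.23, SE 0.339, limma, adjusted p = 0.0148). Its reads and those of its host cannot be told apart in such a table.

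STAG1 and STAG2 encode alternative HEAT-repeat subunits, and each cohesin complex holds one or the other. STAG2 (Xq25), the more abundant transcript, was at 26.8 and 30.5 RPKM with TPA and at 41.4 and 48.5 RPKM in control, a log2 fold change of -0.63 (SE 0.147, limma, adjusted p = 0.00679). STAG1 (3q22.3) was at 9.07 and 9.29 RPKM with TPA and at 15.2 and 17.1 RPKM in control, a log2 fold change of -0.75 (SE 0.133, limma, adjusted p = 0.00176). Both fell with no overlap between groups. The call for STAG2 was lost without control replicate 2, at a log2 fold change of -0.52.

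NIPBL (5p13.2), which encodes the protein that loads cohesin onto DNA and drives loop extrusion, was the exception. It was at 14.9 and 12.4 RPKM with TPA and at 11.4 and 11.6 RPKM in control. Both TPA libraries lay above the controls, but the replicates with TPA differed by more than the gap between groups at its narrowest. The log2 fold change was 0.22 (SE 0.141, 95% confidence interval -0.11 to 0.55, limma, adjusted p = 0.217), so no fall beyond the lower bound was seen.

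PDS5A and PDS5B encode related proteins that bind cohesin and act in both its protection and its release. PDS5B (13q13.1) was at 8.27 and 7.99 RPKM with TPA and at 16.3 and 16.2 RPKM in control, with a log2 fold change of -0.92 (SE 0.127, limma, adjusted p = 0.000451). PDS5A (4p14) was at 32.0 and 30.1 RPKM with TPA and at 39.1 and 43.0 RPKM in control. This was the shallowest fall of the 9, to 75.7% of control, at a log2 fold change of -0.39 (SE 0.134, limma, adjusted p = 0.0356). The PDS5A call was lost without control replicate 1 (-0.46), control replicate 2 (-0.32) or TPA replicate 2 (-0.35), and after quantile normalization (-0.26).

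CDCA5 (11q13.1) encodes sororin, which shields cohesin from release after replication and is degraded at the end of mitosis. It was at 2.37 and 3.13 RPKM with TPA and at 64.5 and 75.5 RPKM in control. The TPA libraries thus held a small remnant of a transcript that was the second most abundant of the members in control cells. Its mean was 2.75 ± 0.539 RPKM with TPA and 70.0 ± 7.80 RPKM in control, a log2 fold change of -4.25 (SE 0.157, limma, adjusted p = 5.94e-07) that ranked 16 from the largest fall among the tested genes. ZFPL1, which starts beside CDCA5 on the other strand, was at 10.0 and 10.5 RPKM with TPA and at 13.5 and 12.0 RPKM in control. It did not pass, with a log2 fold change of -0.29 (SE 0.133, limma, adjusted p = 0.099).

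**Figure D2:**
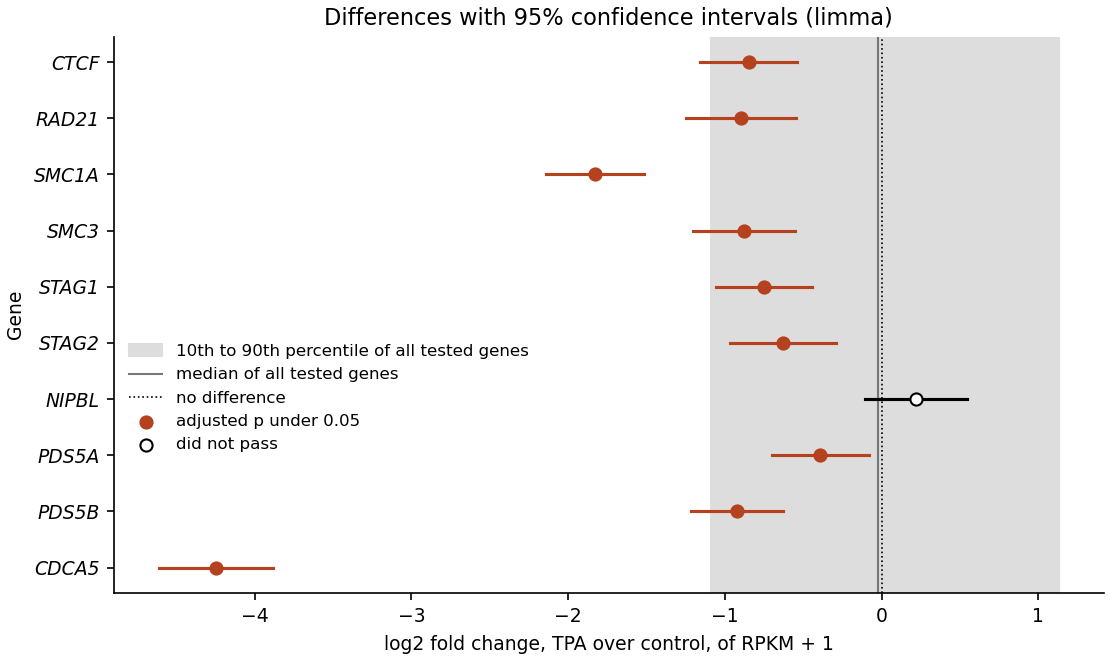
Log2 fold change (TPA over control, of RPKM + 1) of each gene with its 95% confidence interval from limma. Filled points passed at an adjusted p under 0.05, the grey band spans the 10th to 90th percentile of all 12159 tested genes (-1.09 to 1.13), and only CDCA5 (-4.25) and SMC1A (-1.83) have point estimates outside it.

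Ratios within a library carry no library scale, so they show whether members kept their proportions. Of 8 ratios computed, 6 did not overlap between groups and 2 did. Several ratios share a member, so they are not independent. The share of other gene pairs without overlap was not computed, so the count of 6 has no background. With 2 libraries per group a two-sided exact permutation test cannot go below p = 0.333, which all 6 reached (0.444 after Benjamini-Hochberg adjustment over the 8), so none can pass. SMC1A over SMC3 was 0.397 and 0.388 with TPA and 0.845 and 0.774 in control, so the 2 ATPase transcripts were near parity in control and apart with TPA. RAD21 over SMC3 was 3.35 and 4.42 with TPA and 3.77 and 3.94 in control, and CTCF over RAD21 was 0.295 and 0.285 with TPA and 0.301 and 0.267 in control. These 2 ratios overlapped between groups.

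NIPBL over SMC3 was 0.650 and 0.612 with TPA and 0.301 and 0.272 in control, so there was more loader transcript per ring transcript with TPA. PDS5A over PDS5B was 3.87 and 3.77 with TPA and 2.39 and 2.65 in control. STAG1 over STAG2 was 0.339 and 0.304 with TPA and 0.367 and 0.352 in control, the smallest shift among the 6 ratios that did not overlap (-0.16 on the log2 scale). The largest was that of CDCA5 over RAD21, at 0.0309 and 0.0351 with TPA and 0.451 and 0.449 in control (-3.77 on the log2 scale). SMC1A over RAD21 was 0.119 and 0.0879 with TPA and 0.224 and 0.197 in control.

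**Figure D3:**
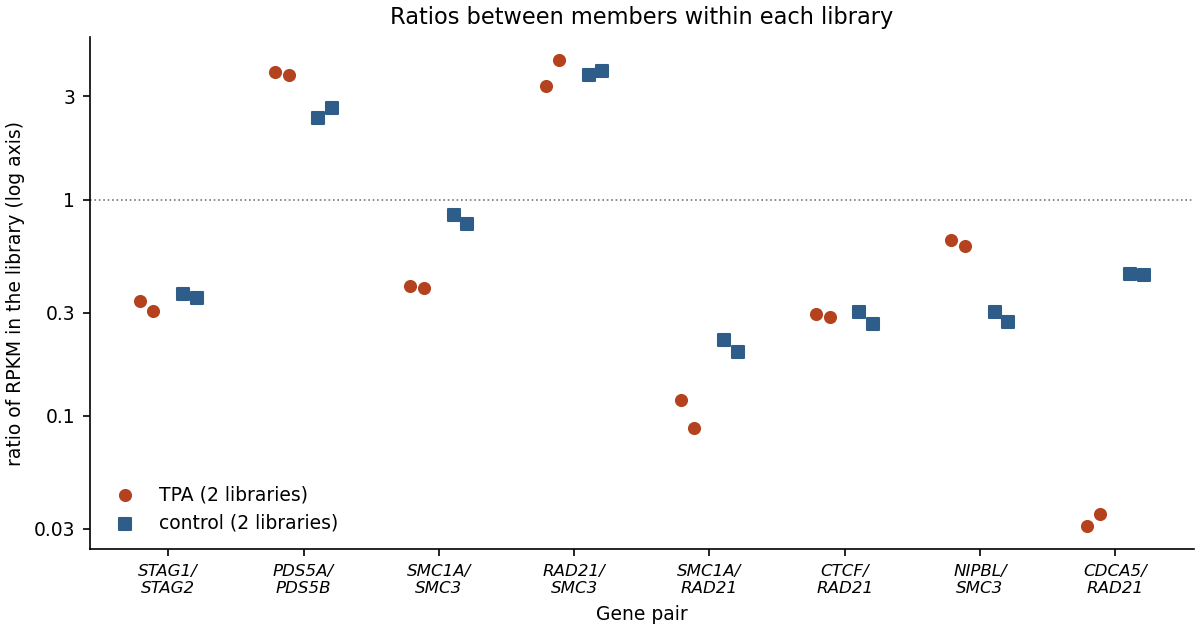
Ratio of RPKM between 2 members in each library (log axis), TPA as circles on the left and control as squares on the right. RAD21/SMC3 and CTCF/RAD21 overlap between groups, while SMC1A/SMC3 lies at 0.388 to 0.397 with TPA and 0.774 to 0.845 in control.

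The order of the levels also differed between the groups. In TPA cells RAD21 led at 83.0 RPKM, followed by PDS5A (31.1), STAG2 (28.6), CTCF (24.0), SMC3 (21.6), NIPBL (13.6), STAG1 (9.18), SMC1A (8.47), PDS5B (8.13) and CDCA5 (2.75). The ranges of PDS5A and STAG2, of CTCF and SMC3, of STAG1 and SMC1A, and of SMC1A and PDS5B overlapped, so these neighbours did not differ beyond their spread. In control cells RAD21 led at 156 RPKM, followed by CDCA5 (70.0), STAG2 (44.9), CTCF (44.0), PDS5A (41.1), SMC3 (40.4), SMC1A (32.6), PDS5B (16.3), STAG1 (16.1) and NIPBL (11.5). There STAG2 and CTCF, PDS5A and SMC3, and PDS5B and STAG1 overlapped. NIPBL was the lowest of the 10 in control and ranked 6 with TPA, and CDCA5 ranked 2 in control and 10 with TPA.

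Other genes of cohesin control were read as a list of 12. Of these 1 rose, 7 fell and 4 did not pass, where 28.4% of all tested genes rose and 29.8% fell. The list had a median log2 fold change of -1.39. ESCO2, the acetyltransferase that establishes cohesion in S phase, was at 0.734 and 0.822 RPKM with TPA and at 21.0 and 27.5 RPKM in control. Its log2 fold change was -3.82, and it entered the test only through the control libraries. ESPL1 (separase), the protease that opens the ring, had a log2 fold change of -2.50. The others that fell were SGO1, SGO2, GSG2 (haspin), PTTG1 (securin) and DDX11. MAU2, which forms the loader with NIPBL, was the gene that rose, at 18.5 and 19.1 RPKM with TPA and at 14.7 and 14.2 RPKM in control (log2 fold change 0.36, SE 0.128, limma, adjusted p = 0.0415). No gene of the list was called as risen without control replicate 1, control replicate 2 or TPA replicate 2.

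WAPL, ESCO1 and HDAC8 were among the 4 that did not pass. WAPL, the release factor that acts with the PDS5 proteins, was at 24.2 and 26.9 RPKM with TPA and at 30.6 and 33.7 RPKM in control (log2 fold change -0.32). ESCO1, the acetyltransferase active outside S phase, was at 8.41 and 10.4 RPKM with TPA and at 9.17 and 9.64 RPKM in control (log2 fold change -0.01). HDAC8, which deacetylates SMC3, had a log2 fold change of 0.27.

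Condensin, the related complex that compacts mitotic chromosomes, fell in all 8 subunit genes tested, where 29.8% of all tested genes fell. The median log2 fold change of the 8 was -2.65. SMC2, one of its ATPase arms, was at 2.76 and 2.94 RPKM with TPA and at 32.1 and 38.0 RPKM in control, and NCAPH, its kleisin, had a log2 fold change of -2.97. Among 22 replication fork genes all 22 fell, against the same 29.8% of all tested genes, with a median of -3.05. CDC6 and GINS2 had log2 fold changes of -4.48 and -4.81, beside -4.25 for CDCA5. Of 12 reference genes often used as controls, 1 rose, 8 fell and 3 did not pass. Over all tested genes 28.4% rose and 29.8% fell. The reference genes had a median of -0.56. TBP fell by 0.84 on the log2 scale, beside -0.85 for CTCF, and HPRT1 fell by 1.26. Without control replicate 2 the reference genes that fell numbered 5, and none was called as risen without control replicate 1 or control replicate 2. The replication fork genes fell as most members did, but with a lower median (-3.05, against -0.86 for the members). The part of the fork genes in the members' falls was not tested.

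The SMC5/6 complex, the remaining SMC complex, which acts in DNA repair, had genes called in each direction. Of 8 genes 2 rose, 3 fell and 3 did not pass, where 28.4% of all tested genes rose and 29.8% fell, so the counts are near that background. The list had a median log2 fold change of -0.17. SMC6 was at 85.7 and 109 RPKM with TPA and at 18.3 and 19.2 RPKM in control, a log2 fold change of 2.31 (SE 0.155, limma, adjusted p = 9.12e-06). Its partner SMC5 was at 9.55 and 10.2 RPKM with TPA and at 18.3 and 20.8 RPKM in control (log2 fold change -0.92). NSMCE1 rose (0.68), and NSMCE4A and SLF1 fell (-1.09 and -1.30). Without TPA replicate 2, 1 gene of this list was called as risen.

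Among 16 genes of proteins that bind with or near CTCF, 1 rose, 8 fell and 7 did not pass. Over all tested genes 28.4% rose and 29.8% fell. The median log2 fold change of the 16 was -0.31. MAZ, a zinc finger factor found at CTCF sites, was at 61.1 and 79.3 RPKM with TPA and at 249 and 234 RPKM in control (log2 fold change -1.78). TOP2B, the topoisomerase at loop anchors, was at 243 and 278 RPKM with TPA and at 484 and 486 RPKM in control (-0.90), and YY1 and ZNF143, which bind promoters in loops, had log2 fold changes of -0.55 and -0.58. LDB1, which joins enhancers to promoters, rose (0.41). The count that fell was 4 without control replicate 2, and none was called as risen without control replicate 1, control replicate 2 or TPA replicate 2.

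**Figure D4:**
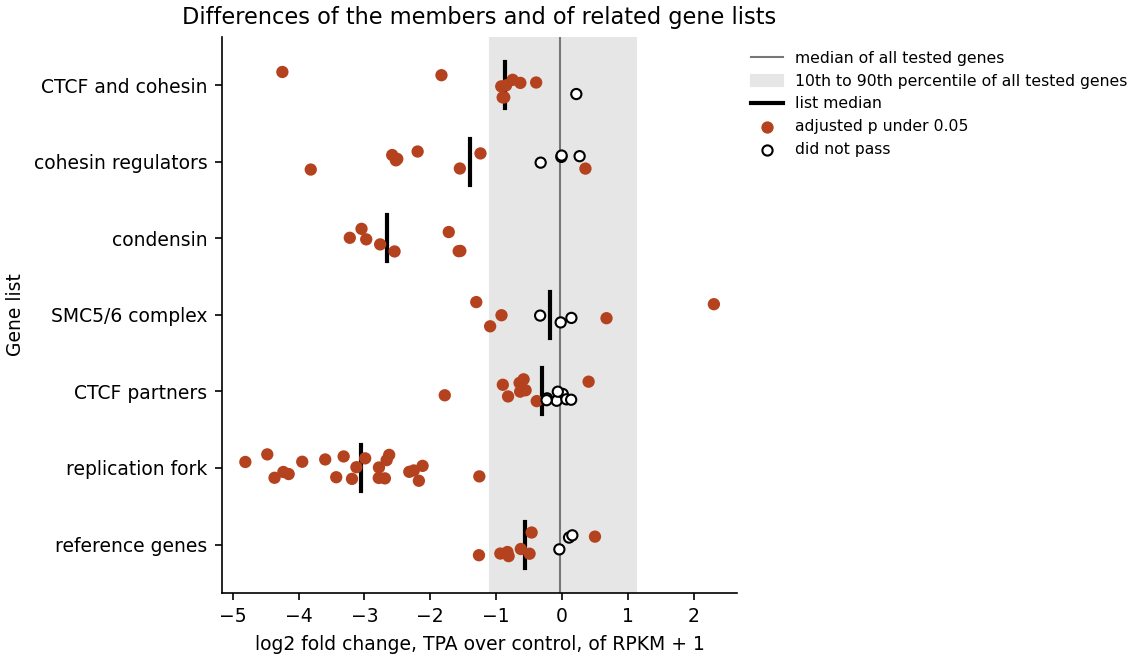
Log2 fold change (TPA over control, of RPKM + 1) of every tested gene of the CTCF and cohesin set and of 6 related lists, filled where the adjusted p was under 0.05, with a black bar at each median. The set's median is -0.86, against -2.65 for condensin, -3.05 for the replication fork and -0.56 for reference genes.

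The genes most like CTCF over the 4 libraries were sought among 12149 other tested genes by the root mean square difference of log2(RPKM + 1) values centred on each gene's mean. DAZAP1 was closest (0.00753), followed by SORD (0.0083), TIGD2 (0.0119), TRMT61A (0.0128) and SH2D5 (0.0171). DAZAP1 was at 35.4 and 39.9 RPKM with TPA and had a mean of 67.9 RPKM in control. For the average of RAD21, SMC1A and SMC3 the closest were YBX1 (0.0127), FHOD3 (0.0179), ZNF788 (0.0188), NUP50 (0.0272) and YARS (0.0279). YBX1 had a log2 fold change of -1.19. That lies between RAD21 (-0.90) and SMC3 (-0.88) on one side and SMC1A (-1.83) on the other, so the average stands for no single ring gene. SH2D5 and FHOD3 were under 1 RPKM in both TPA libraries and entered the test only through the control libraries. Adding 1 before the log shrinks their differences. In RPKM SH2D5 stood at 23.3% of control, against 54.6% for CTCF, and FHOD3 at 17.8%. Among the members themselves CTCF and RAD21 were the closest pair (0.069), followed by CTCF and STAG1 (0.0755). With 4 libraries in 2 groups such likeness mostly reflects the size of the difference between groups.

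Annotated neighbours could share reads with a member, since no source used here says that strand was used. RAD21-AS1, which overlaps RAD21, was at 1.15 and 1.31 RPKM with TPA and at 1.66 and 1.57 RPKM in control, and MIR3610, also within RAD21, at 2.42 and 5.83 RPKM with TPA and at 3.84 and 5.47 RPKM in control. Neither passed. The neighbours NAALADL1 of CDCA5 and RIBC1 of SMC1A stayed under 1 RPKM in every library.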

How the data were processed

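RNA of 697 cells was measured in 4 libraries, and the authors deposited RPKM values to 3 decimals for 27142 genes, per the file headers. CASAVA 1.8, Bowtie 1.12, TopHat, SAMtools and HOMER and the build hg19 are named, without roles, per the submitters' processing notes. Strand use and the treatment of reads with several matches are not given in the sources used here. No count model was fitted, since the values are not counts. Genes reaching 1 RPKM in 2 or more libraries were kept. Their log2(RPKM + 1) values were compared between TPA and control by limma 3.58.1 under R 4.3.3, using empirical Bayes moderation with a trend and two-sided p-values with Benjamini-Hochberg adjustment over all 12159 genes. Fold changes on this scale understate those of low genes. The fit was tested on simulated data with the same spread for every gene, independent libraries and far fewer changed genes than here. That test therefore does not give the rate of false calls in these data. Ratios were tested with an exact permutation test in scipy 1.17.1. All 10 members matched RefSeq by symbol, and sequences, for all but RAD21, were taken from RefSeq on GRCh38.p14. Groups and replicate numbers came from sample titles. The text names all members and the 2 genes of each related list with the smallest p in each direction. It also names the 5 genes most like CTCF, the 5 most like the average of the ring genes, and neighbours. Other list genes were named, and the motifs picked, after values and sequences were seen. Members and lists were chosen with earlier results of these data known. The alternatives were other pseudocounts (0.1 and 0.5), filters (none and 5 RPKM), scalings, variance models, thresholds (adjusted p of 0.01 and 0.1, and a 1.2-fold change), a replicate block and each library left out. Some list genes are not reported here by name. Figures were drawn with matplotlib 3.10.9.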

Additional observations from a re-analysis of the deposited data

How the results depend on the processing

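Under the 16 alternatives 7 to 9 members fell and 0 rose, and no member changed direction. Of 160 member values 153 kept their side of the threshold. The other 7 were 6 of PDS5A and 1 of STAG2, all lost calls. PDS5A also lost its call at an adjusted p of 0.01 and against a 1.2-fold change. With each library left out in turn, 2516 to 3092 genes rose and 2412 to 3911 fell over all tested genes, and 7 to 9 members fell. The lowest count of falls, 2412 against 3621 with all libraries, came without control replicate 2. A group left with 1 library was assumed to vary like the other, and the p-values of those fits rest on a different prior. NIPBL lay between 0.09 and 0.34 on the log2 scale and passed in none of the 16. With the replicate number as a block, 3946 genes rose and 4288 fell, and 9 members fell. Deviations of libraries with the same number had a correlation of 0.361 across genes, but no label says that the number marks a pair, so the block was not used. Without TPA replicate 2 the median of all genes was -0.13, against -0.02 with all libraries, and no rescaling moved it by as much as 0.1. With the read totals unknown, no counting error can be given for any value.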

Other observations

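Germline forms of these genes were read as a separate list of 6. CTCFL, the testis paralogue of CTCF, and RAD21L1, a meiotic kleisin, were listed at 0 in all 4 libraries. SMC1B stayed at or below 0.171 RPKM and MEIKIN at or below 0.015 RPKM. The meiotic subunit genes REC8 and STAG3 passed the filter, only through the TPA libraries, which were the higher. REC8 was at 1.58 and 1.52 RPKM with TPA and at 0.569 and 0.377 RPKM in control, and STAG3 at 1.39 and 1.44 RPKM with TPA and at 0.721 and 0.709 RPKM in control. Both stayed far below the somatic subunits RAD21 and STAG2 in every library.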
